A study of Mus musculus with 12 samples.

Results

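The 8 genes examined here were Ifit1, Ifit2, Ifit3 and Ifit3b, which encode the interferon-induced proteins with tetratricopeptide repeats (IFIT), and Isg15, Uba7, Herc6 and Usp18, the core of the ISG15 system. They were taken by symbol, and all 8 were found among the 40853 gene symbols measured. RNA was sequenced from microglia and astrocytes sorted by flow cytometry from whole brains of mice aged 8 to 9 weeks. Every mouse was given an intraperitoneal dose of 1 mg/kg LPS, the bacterial endotoxin lipopolysaccharide, 20 h before dissection. The mice were labelled wild type (WT) or KPNA4 KO (KO), a knockout of the nuclear import adaptor importin α4. Each of the 4 groups of cell type and genotype had 3 libraries, and 6 animals, 3 of each genotype, gave 1 library of each cell type. Untreated mice were not analysed here, so no level can be read as a response to LPS. How Kpna4 was disrupted is not stated in the labels. The study asked how glial genes respond to an inflammatory stimulus without importin α4.

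Type I interferons bind the receptor formed by Ifnar1 and Ifnar2, and the kinases Jak1 and Tyk2 then activate transcription factors, among them Stat2 with its partner Irf9. These enter the nucleus and bind interferon-stimulated response elements, repeats of the letters GAAA, in front of many antiviral genes. IFIT proteins bind foreign RNA and hinder its translation. ISG15 is a small ubiquitin-like protein that is attached to other proteins by the activating enzyme Uba7, the conjugating enzyme Ube2l6 and a ligase, chiefly Herc6 in the mouse. The protease Usp18 removes ISG15 and also holds back signalling at Ifnar2. Microglia are well known for such an interferon response in inflamed brain, and astrocytes mount it as well.

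The promoters are shown for the 4 genes in which the element was found. A promoter sequence was matched for 7 of the 8 genes, all but Usp18, in windows from 250 bases before to 50 bases after the start (RefSeq, GRCm38.p6). The core motif searched was GAAA, any 2 bases, then GAAA, on both strands, with overlapping matches counted. It was present in 4 of the 7 genes, Ifit1, Ifit3, Ifit3b and Isg15, and in 3.99% of all 27025 genes of the table (3.44% of its 32851 windows). The capitals mark the matches, which on the printed strand of the 3 IFIT genes read as the reverse complement.
Ifit1, chr19:34640775-34640823, + strand: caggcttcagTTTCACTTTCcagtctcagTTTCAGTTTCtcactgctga
Ifit3, chr19:34583363-34583426, + strand: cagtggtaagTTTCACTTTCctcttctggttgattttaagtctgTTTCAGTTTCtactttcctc
Ifit3b, chr19:34607759-34607822, + strand: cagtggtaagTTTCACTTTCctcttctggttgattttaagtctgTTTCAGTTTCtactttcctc
Isg15, chr4:156200865-156200906, - strand: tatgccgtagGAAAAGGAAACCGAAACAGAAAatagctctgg
In Ifit1 the matches began 104 and 85 bases before the start, in Ifit3 156 and 122 bases before it, and in Ifit3b 188 and 154 bases before it. Isg15 had 3 overlapping matches, the first 78 bases before the start. The stretches of 64 bases printed for Ifit3 and Ifit3b were identical, and over the 250 bases before the start 216 of 218 aligned bases were identical (99.1%). No match was found in the windows of Ifit2 (2 windows), Herc6 and Uba7, which says only that these letters are not in them. A match is a description of sequence and no measurement of binding.

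Totals ran from 10319842 to 15575662 estimated counts per library. Levels below are CPM, a count scaled to a library total of 1000000, while fold changes and p-values are from edgeR's quasi-likelihood test with TMM scaling, adjusted over all genes tested. The sorted types matched their labels, since 10 microglia markers summed to 10500 to 16500 CPM in microglia and 204 to 526 in astrocytes. The 10 astrocyte markers summed to 15300 to 20300 CPM in astrocytes and 332 to 739 in microglia. Kpna4 was at 59.8 to 96.4 CPM in microglia and 40.2 to 80.2 CPM in astrocytes. Its WT and KO libraries overlapped in both. The WT and KO means were 84.4 and 69.0 CPM in microglia, and 49.6 and 64.35 CPM in astrocytes, where KO was thus the higher. Neither difference passed the test (edgeR adjusted p 0.778 and 0.999). The difference between the cell types in this genotype effect was 0.87 on the log2 scale (edgeR unadjusted p 0.0118, adjusted p 0.6145). These counts cover the whole gene and do not check the genotype labels, so KO refers below to the libraries labelled KO. Nothing in the labels says whether animals shared a litter or a day. All 8 genes were well above the floor of 3 counts in every library, apart from Uba7 in 1 astrocyte library.

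Transcripts of all 8 genes were found in both cell types, at levels that differed for 6 of them. Ifit3b, Ifit3 and Ifit1 were higher in astrocytes, Uba7, Usp18 and Ifit2 were higher in microglia, and the difference in Isg15 and Herc6 did not pass the test (edgeR, adjusted p under 0.05, both genotypes averaged, 6 libraries of each type). The direction was thus split within the IFIT family, while the ISG15-system genes that passed were both higher in microglia. Of all 17294 genes tested, 64.6% were called between the cell types, 36.4% as higher in astrocytes and 28.2% as higher in microglia. The count of 6 called among 8 is near that background and is no result about the group. The median log2 fold change of astrocytes over microglia was -0.13 for the 8 genes and 0.19 for all genes tested.

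**Figure D1:**
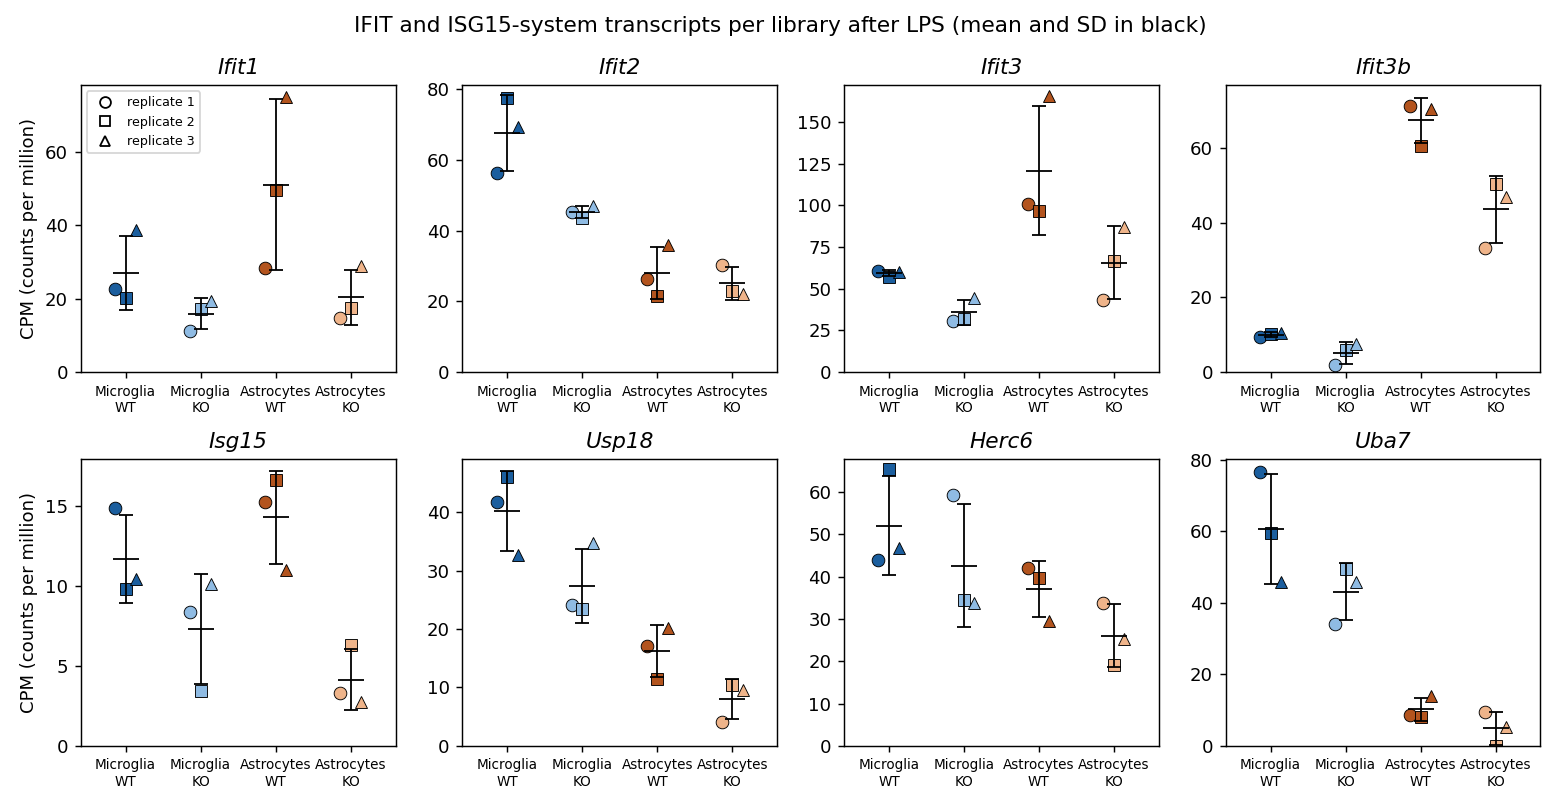
CPM of each of the 8 genes (linear axes from 0) in the 4 groups of cell type and genotype, with 1 symbol per library, replicate by symbol shape, and the group mean and SD in black. Ifit3b lay between 33.3 and 71.2 CPM in astrocytes and between 1.84 and 10.6 in microglia, while Uba7 lay between 34.2 and 76.5 CPM in microglia and between 0 and 13.9 in astrocytes.

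Ifit3b had the largest of these differences. In WT animals it was at 9.42, 10.1 and 10.6 CPM in microglia and at 71.2, 60.6 and 70.5 CPM in astrocytes. In KO animals it was at 1.84, 5.77 and 7.58 CPM in microglia and at 33.3, 50.4 and 47.0 CPM in astrocytes. Every astrocyte library was above every microglia library, as for 21.7% of all genes tested. The log2 fold change of astrocytes over microglia was 3.22 (SE 0.29, edgeR adjusted p 2.19e-07), higher in 6 of 6 animals.

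Ifit3 is the close copy of Ifit3b. It was at 60.8, 57.2 and 60.2 CPM in WT microglia and at 100.7, 96.6 and 165.4 CPM in WT astrocytes. In KO animals its levels were 30.8, 31.9 and 44.6 CPM in microglia and 43.0, 66.7 and 87.1 CPM in astrocytes. Astrocytes were higher in each of the 6 animals, although the lowest KO astrocyte library lay within the range of microglia. The log2 fold change was 1.23 (SE 0.21, edgeR adjusted p 1.07e-04).

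Reads of Ifit3 and Ifit3b cannot be fully told apart. Their longest protein-coding transcripts in GENCODE M21 were 98% identical over 1697 aligned bases, and 51.2% of the stretches of 50 bases in Ifit3 also occurred in Ifit3b. The deposited values of both genes were fractional in all 12 libraries, while their sum was whole in all 12 at a tolerance of 0.001, as when reads that match both are divided between them. Summed to a single row, the pair was at 69.4 ± 1.80 CPM in WT microglia, 40.8 ± 10.1 in KO microglia, 188 ± 41.8 in WT astrocytes and 109 ± 29.7 in KO astrocytes (SD, n = 3 each). The sum was higher in astrocytes with a log2 fold change of 1.72 (edgeR adjusted p 2.1e-06). Both genes together were therefore higher in astrocytes however the shared reads were divided.

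Ifit3b also made up a larger part of the pair in astrocytes. Its share of the summed estimated counts was 14.4% ± 0.897 in WT and 11.8% ± 5.44 in KO microglia, against 36.6% ± 6.01 in astrocytes of WT and 40.6% ± 4.80 in those of KO animals (SD, n = 3 each). The astrocyte library exceeded the microglia library of the same animal by 15.0 to 38.1 percentage points, with a mean of 25.5, in 6 of 6 animals. A 2-sided exact permutation test over the 6 pairs gave p = 0.03125, the smallest it can give. Between genotypes the share overlapped in both cell types, and an exact permutation test gave p = 0.7 for microglia and p = 0.5 for astrocytes, where 0.1 is the smallest possible. The lowest share, 5.56%, was in microglia of KO replicate 1 and rested on 19 counts of Ifit3b.

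**Figure D2:**
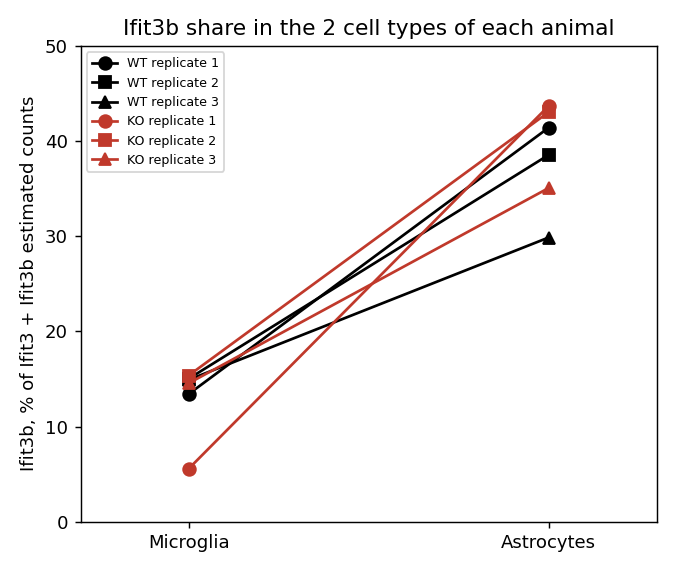
Share of Ifit3b in the summed estimated counts of Ifit3 and Ifit3b (percent, linear axis from 0) in the microglia and the astrocyte library of each animal, joined by a line, WT in black and KO in red. All 6 lines rise, from 5.56% to 15.4% in microglia to 29.9% to 43.7% in astrocytes.

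Ifit1, which recognises RNA with a foreign cap or end, was at 22.5, 20.0 and 38.6 CPM in WT microglia and at 28.4, 49.5 and 74.9 CPM in WT astrocytes. In KO animals it was at 11.1, 17.2 and 19.2 CPM in microglia and at 14.7, 17.5 and 28.8 CPM in astrocytes. The cell types overlapped, but the astrocyte library was the higher one in 6 of 6 animals. At 0.91 on the log2 scale (SE 0.27, edgeR adjusted p 0.0095), its difference was the least firm of the 6 called. Its adjusted p was 0.106 without WT replicate 2, 0.0554 without KO replicate 2 and 0.0845 without KO replicate 3. With the library total in place of TMM it was 0.0598, and in KO animals alone 0.175.

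Ifit2, an RNA-binding relative, had the opposite direction. Its WT levels were 56.2, 77.4 and 69.4 CPM in microglia and 26.4, 21.6 and 36.0 CPM in astrocytes. In KO animals they were 45.4, 43.7 and 47.0 CPM in microglia and 30.4, 22.8 and 22.1 CPM in astrocytes. All 6 microglia libraries lay above all 6 astrocyte libraries, as in 24.9% of all genes tested. The log2 fold change of astrocytes over microglia was -0.78 (SE 0.16, edgeR adjusted p 7.17e-04). In KO animals alone it was -0.53 with an adjusted p of 0.0951.

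In the ISG15 system, the activating enzyme Uba7 was the gene most skewed to microglia. It was at 76.5, 59.6 and 45.8 CPM in WT and 34.2, 49.4 and 45.9 CPM in KO microglia. In astrocytes it was at 8.56, 8.05 and 13.9 CPM in WT and 9.35, 0 and 5.33 CPM in KO. The library with 0 counts, astrocytes of KO replicate 2, allows up to 0.279 CPM by counting error alone. The ranges of the cell types did not overlap, and the log2 fold change was -2.64 (SE 0.51, edgeR adjusted p 3.76e-04).

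Usp18, the ISG15 protease, was at 41.8, 46.1 and 32.7 CPM in WT and 24.1, 23.5 and 34.8 CPM in KO microglia. Its astrocyte levels were 17.1, 11.4 and 20.2 CPM in WT and 4.0, 10.4 and 9.63 CPM in KO. Every microglia library exceeded every astrocyte library, with a log2 fold change of astrocytes over microglia of -1.24 (SE 0.28, edgeR adjusted p 0.00137).

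Herc6, the ligase, overlapped between the cell types, at 43.9, 65.6 and 46.9 CPM in WT and 59.4, 34.6 and 33.8 CPM in KO microglia. In astrocytes it was at 42.1, 39.8 and 29.5 CPM in WT and 33.8, 19.1 and 25.3 CPM in KO. By CPM the astrocyte library was the lower one in all 6 animals. With TMM scaling the log2 fold change was -0.32 (SE 0.20), which did not pass the test (edgeR adjusted p 0.178). It passed with the library total in place of TMM (-0.60, adjusted p 0.0251) and without KO replicate 3 (-0.59, adjusted p 0.0445).

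Isg15 itself was at 14.9, 9.78 and 10.4 CPM in WT and 8.33, 3.43 and 10.1 CPM in KO microglia. In astrocytes it was at 15.3, 16.6 and 11 CPM in WT and 3.32, 6.33 and 2.76 CPM in KO. The cell types overlapped, and astrocytes were the higher in 4 of 6 animals (log2 fold change 0.05, SE 0.38, edgeR adjusted p 0.918). The sign of this value changed under several alternatives, so it gives no direction.

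Markers of the other sorted type were measured beside these differences. Microglia markers in an astrocyte library summed to 1.81% to 5.01% of those in the microglia library of the same animal. Usp18 in astrocytes was at 16.6% to 61.7% of its microglia level and Ifit2 at 27.9% to 66.9%, while Uba7 ranged from 0% to 30.3%. Astrocyte markers in microglia were at 1.79% to 3.83% of the astrocyte level, against 5.53% to 16.7% for Ifit3b. Markers of further cells also differed between the sorted types. The 5 mural markers summed to 315 to 421 CPM in astrocytes and 4.36 to 28.1 in microglia. The 6 neuron markers summed to 50 to 122 and 8.87 to 17.3 CPM, and the ependymal gene Foxj1 was at 90.3 to 238 and 1.36 to 7.9. Border macrophage markers went the other way, at 11.1 to 30 and 170 to 373 CPM. The sums of the other lists overlapped. The part of RNA from the other type in the lower levels, or from further cells in any level, was not tested. In each bulk library, fewer cells that express a gene and less RNA per cell cannot be told apart.

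Between genes, levels were compared per kilobase of the longest protein-coding GENCODE M21 transcript, on the linear CPM scale. In WT microglia Ifit3 was highest at 34.0 ± 1.08 CPM per kilobase, clear of Usp18 at 22.7 ± 3.87. Uba7 (19.0), Ifit2 (17.7) and Isg15 (15.5) followed with ranges that overlapped from each gene to the next. Herc6 was at 10.9 and Ifit1 at 10.2, and Ifit3b was lowest at 5.02 ± 0.289 (SD, n = 3 each). In WT astrocytes the order began with Ifit3 at 69.3 ± 22.1 and Ifit3b at 33.7 ± 2.97, and these ranges were apart. Ifit1 (19.2) and Isg15 (18.9) overlapped, as did Usp18 (9.15), Herc6 (7.79) and Ifit2 (7.34). Uba7 was lowest at 3.18 ± 1.01. The place of Ifit3b thus went from the last of 8 in microglia to the second in astrocytes, and that of Uba7 from the third to the last. In KO cells Ifit3 was also highest, but its range overlapped that of the next gene, Usp18 in microglia and Ifit3b in astrocytes. The same gene as in WT was lowest in each cell type.

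The upstream genes followed microglia. Of 18 interferon signalling genes, from Tlr4 to the transcription factors, 15 passed the filter on low counts, and all 15 had a negative log2 fold change of astrocytes over microglia, as 45.9% of all genes did. Of these, 14 were called as higher in microglia, all but the inhibitor Socs1, beside 28.2% of all genes tested. The libraries of the 14 did not overlap, as in 24.9% of all genes tested for this direction. The LPS receptor Tlr4 had a log2 fold change of -3.92, Tyk2 of -2.41, Ifnar2 of -1.80 and the feedback inhibitor Socs3 of -5.35 (edgeR adjusted p at most 1.12e-07). Among the factors that bind the response element, the values were -1.55 (SE 0.19) for Stat2 and -1.0 (SE 0.18) for Irf9, with adjusted p of 1.85e-04 or less. Irf7, which amplifies interferon production, was at -1.39 (SE 0.26, adjusted p 3.15e-04). Higher Ifit1, Ifit3 and Ifit3b in astrocytes therefore stood beside lower transcripts of these signalling genes.

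Of the 6 other genes of ISG15 conjugation, 4 were called as higher in microglia and 1 as higher in astrocytes. The shares of all genes tested were 28.2% and 36.4%, or 64.6% in either direction, so these counts are no result about the 6 genes. The conjugating enzyme Ube2l6 stood at -1.60 on the log2 scale (SE 0.49, edgeR adjusted p 0.0108), and the ligase Trim25 of -0.94 (SE 0.18, adjusted p 3.05e-04). The exception was Ube2e2, a ubiquitin-conjugating enzyme, at 3.36. Of the interferon genes only Ifnb1, Ifna2 and Ifna4 were looked up, and these were nearly absent. Ifna4 had 0 counts in all 12 libraries, Ifnb1 had 2 and 10 counts in microglia of WT replicates 2 and 3, and Ifna2 had 3 and 1 in those of WT replicates 1 and 3. A count of 0 allows levels of up to 0.193 to 0.291 CPM in these libraries.

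**Figure D3:**
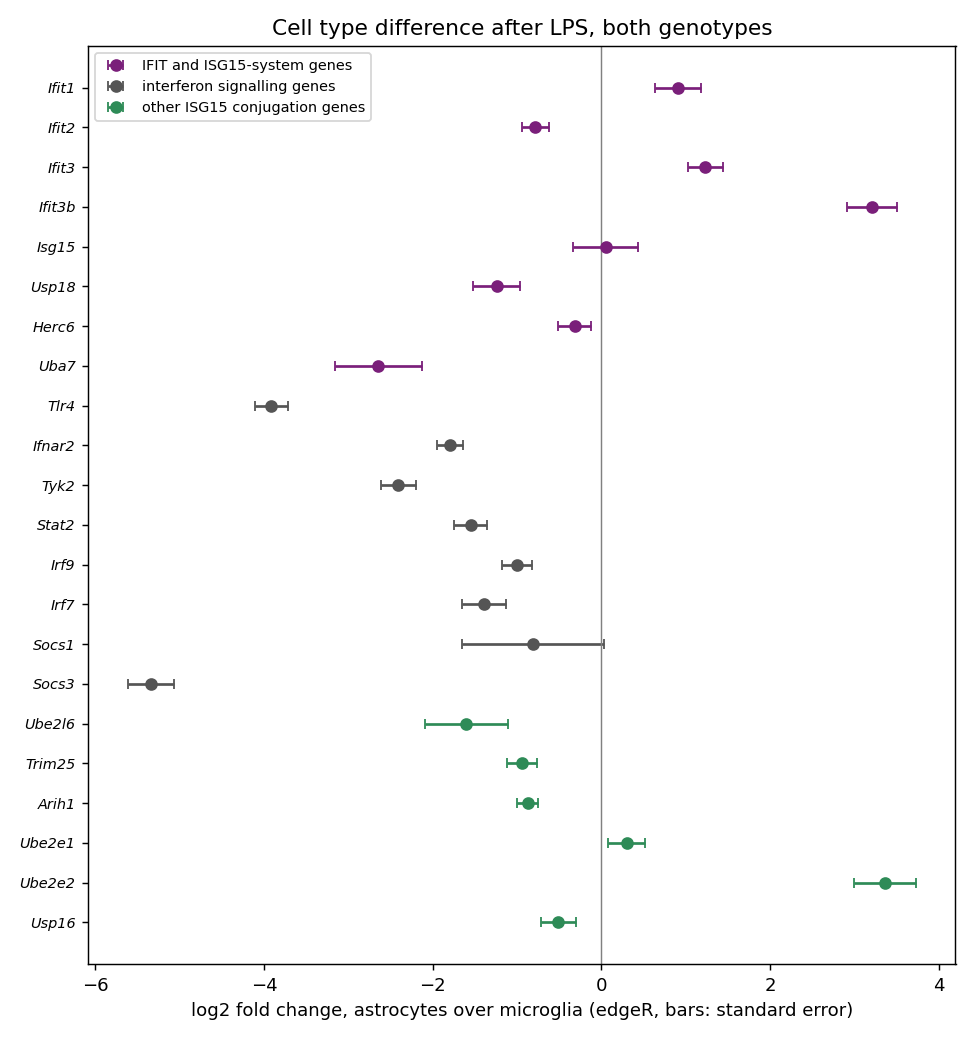
Log2 fold change of astrocytes over microglia (edgeR, points with SE bars, both genotypes averaged, 12 libraries) for the 8 genes in purple, 8 of the interferon signalling genes in grey and 6 other ISG15 conjugation genes in green. The purple points run from -2.64 for Uba7 to 3.22 for Ifit3b, and all 8 grey points lie left of 0.

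Between genotypes, all 8 genes had lower estimates in KO in both cell types, but none passed the test. In microglia the log2 fold changes of KO over WT ran from -1.01 to -0.31 with a median of -0.66, and in astrocytes from -1.62 to -0.03 with a median of -0.78. The medians over all genes tested were -0.00129 and -0.00684, and 50.1% and 50.6% of genes had a negative value. edgeR called 0 of 8 genes and 0% of the 14191 genes tested in microglia, where 1053 genes (7.42%) had an unadjusted p under 0.05 and DESeq2 called 41. In astrocytes it also called 0 of 8 and 0% of 15755, with 373 genes (2.37%) at an unadjusted p under 0.05 and 4 called by DESeq2. DESeq2 called 0 of the 8 genes in either. These genes belong to a response whose lower estimates in KO in these same libraries were already known. The shared sign is therefore not independent evidence.

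**Figure D4:**
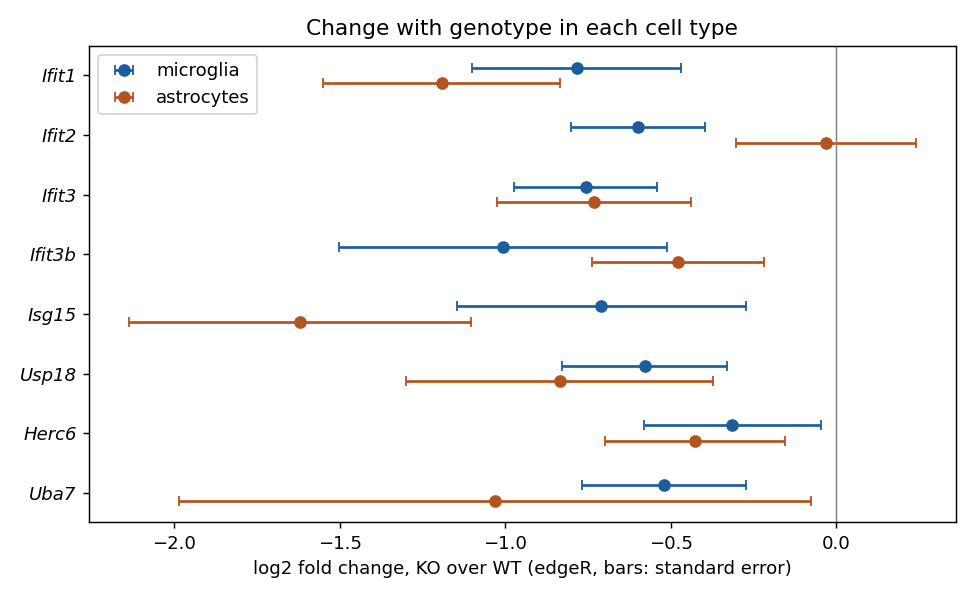
Log2 fold change of KO over WT (edgeR, points with SE bars, 6 libraries per cell type) for the 8 genes in microglia (blue) and astrocytes (orange). All 16 points lie left of 0, from -1.62 for Isg15 to -0.03 for Ifit2, both in astrocytes, and no gene passed an adjusted p of 0.05.

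Single genes came closest in the IFIT family. In microglia, 4 of the 8 had an unadjusted p under 0.05, all lower in KO, as 5.07% of all genes tested did. They were Ifit3, with a log2 fold change of -0.76 (SE 0.22, unadjusted p 0.0036), Ifit2 at -0.60 (SE 0.20, p 0.0104), Ifit1 at -0.78 (SE 0.32, p 0.0263) and Usp18 at -0.58 (SE 0.25, p 0.0363). Their edgeR adjusted p ran from 0.542 to 0.643, and over the alternatives the lowest was 0.159, for Ifit3 with DESeq2. The WT and KO libraries did not overlap in the 4 IFIT genes, as in 6.57% of all genes tested for this direction. By mean CPM, KO microglia held 0.504 times the WT level of Ifit3b, 0.587 times that of Ifit1, 0.602 times that of Ifit3 and 0.670 times that of Ifit2. The ISG15 genes overlapped: Isg15, Usp18, Herc6 and Uba7 had KO means of 7.30, 27.5, 42.6 and 43.2 CPM against WT means of 11.7, 40.2, 52.1 and 60.6 CPM.

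In astrocytes, 3 of the 8 had an unadjusted p under 0.05, all lower in KO, against 1.24% of all genes tested. The number was 5 without KO replicate 2 or with library totals in place of TMM, and 2 without WT replicate 3 or without KO replicate 1. Isg15 had a log2 fold change of -1.62 (SE 0.52, unadjusted p 0.009), Ifit1 of -1.19 (SE 0.36, p 0.0063) and Ifit3 of -0.73 (SE 0.29, p 0.0291). The edgeR adjusted p was 0.999 for each, and the lowest over the alternatives was 0.0656, for Ifit1 without a filter on low counts. For Ifit3, Ifit3b, Isg15 and Usp18 no KO library reached the lowest WT library, as in 5.74% of all genes tested. That share is 905 genes, while 376 were separated in the other direction. CPM are scaled by library totals, which gave a median log2 fold change of -0.11 over all genes, against -0.00684 with TMM. The CPM separations and ratios in astrocytes include this shift. Isg15 was at 14.3 ± 2.91 CPM in WT and 4.14 ± 1.92 in KO astrocytes, 0.290 times the WT level, and Usp18 at 16.2 ± 4.45 and 8.02 ± 3.51 CPM (SD, n = 3 each). Ifit1 overlapped by its lowest WT library, 28.4 CPM, and its highest KO library, 28.8 CPM. Ifit2 was at 28.0 ± 7.33 CPM in WT and 25.1 ± 4.58 in KO (SD, n = 3 each), with a log2 fold change of -0.03 whose sign turned without WT replicate 3 (0.13) or KO replicate 3 (0.09).

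Ifit3 and Ifit3b were the only members of the group whose genotypes were separated in microglia and in astrocytes alike, with KO lower. By the same measure, 78 of 13088 genes tested in both were separated, or 0.596%. Reads are divided between these 2 genes, and both cell types came from the same animals, so these are not independent observations. As a summed pair Ifit3 and Ifit3b stood at -0.78 on the log2 scale in microglia (edgeR adjusted p 0.55). In astrocytes the pair stood at -0.63 (edgeR adjusted p 0.999).

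Whether the genotype difference itself differed between cell types was tested in a fit of all 12 libraries. edgeR called 0 of 8 genes and 0% of 17294, with 1102 genes (6.37%) at an unadjusted p under 0.05 and 62 called by DESeq2, none of them among the 8. The astrocyte estimate less the microglia estimate ran from -0.80 (SE 0.76) for Isg15 to 0.66 (SE 0.33, unadjusted p 0.0621, edgeR adjusted p 0.803) for Ifit2. None of the 8 had an unadjusted p under 0.05. Of the 8 values, 5 were negative, against 39.6% over all genes, whose median was 0.16. Values near that median are no difference beyond the shift shared by all genes. The larger estimate for Isg15 in astrocytes and the smaller one for Ifit2 were thus not shown to differ from those in microglia. On simulated data this test recovered 3% of genes changed by 1 on the log2 scale and 51% of those changed by 2. It could therefore miss differences of the size seen here.

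The signalling genes did not share the lower estimates in microglia. There 10 of the 15 tested had a positive log2 fold change of KO over WT, with a median of 0.11, and in astrocytes 6 of 15 did, with a median of -0.05. Stat2 had estimates of -0.15 in microglia and -0.55 in astrocytes, Irf9 of 0.24 and -0.54, and Irf7 of -0.30 and -0.05. Only Tyk2 in microglia (-0.51, SE 0.24, unadjusted p 0.0486) and Ifnar2 in astrocytes (0.60, SE 0.25, unadjusted p 0.036) had an unadjusted p under 0.05, and none of the 15 passed edgeR's adjusted test in either cell type. Ube2l6 had a log2 fold change of 0.08 in microglia and of -1.72 (SE 0.89, unadjusted p 0.0778) in astrocytes, and Trim25 of -0.24 and 0.01. Of the 6 conjugation genes, Ube2l6 and Trim25 included, none had an unadjusted p under 0.05.

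Sums of other cells' markers had lower means in KO in part. In microglia the 6 ependymal and choroid plexus markers summed to 850 to 2150 CPM in WT and 345 to 875 in KO, with Ttr the most abundant. The 6 endothelial markers summed to 21.6 to 77.1 CPM in WT and 22.3 to 29.7 in KO microglia, and to 26.8 to 110 and 31.1 to 59.0 in astrocytes. The 7 oligodendrocyte markers reached 1690 CPM in microglia and 3820 CPM in astrocytes of WT replicate 3, against at most 713 and 1730 CPM in KO. The 5 mural markers summed to 12.2 to 28.1 CPM in WT and 4.36 to 14.4 in KO microglia, and to 329 to 421 and 315 to 368 in astrocytes. The astrocyte markers in microglia summed to 332 to 739 CPM in WT and 351 to 384 in KO. Border macrophage markers summed to 170 to 373 CPM in WT and 226 to 356 in KO microglia, and the 7 monocyte and neutrophil markers to 5.29 to 29.2 and 6.61 to 11.7. In astrocytes the latter summed to 4.38 to 14.7 CPM in WT and 7 to 12.6 in KO, with S100a9 the highest of them in each library, and Ly6g was the 1 marker at 0 in all astrocyte libraries. The 6 neuron markers summed to 10.9 to 17.3 CPM in WT and 8.87 to 13.7 in KO microglia. In astrocytes their mean was higher in KO, at 88.2 CPM against 72.4, as was that of border macrophage markers, at 21 against 17.8. The ependymal and choroid plexus markers summed to 781 to 1220 CPM in WT and 652 to 914 in KO astrocytes. WT and KO overlapped in each of these sums, and their part in the lower estimates was not tested. Without WT replicate 3, all 8 estimates stayed negative in microglia and 7 of 8 in astrocytes, Ifit2 being the other. Their median was then -0.705 in microglia, against -0.655 with all libraries, and -0.654 in astrocytes, against -0.784. In microglia Ifit1 shrank from -0.78 to -0.46, while Uba7 grew in size from -0.52 to -0.69. Leaving out an animal is no test of the RNA from other cells.

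The 8 genes did not vary as a single block. With each cell type centred on its own mean, log2(CPM + 1) of Ifit3 correlated over the 12 libraries with Usp18 at 0.91 and with Ifit1 at 0.88. Herc6 stood apart, at 0.17 with Ifit3, 0.12 with Ifit1 and -0.01 with Ifit3b, and its closest member was Uba7 at 0.54. These correlations hold the genotype difference and shared library depth, and they are a description. The mean of the 8 was also compared with 9132 other genes with a mean of at least 5 CPM in both cell types. The 5 most like it were Zfp768 (r = 0.95), Nfe2l1 (0.92), Cd274 (0.92), Galnt2 (0.91) and Rnf213 (0.91). This choice holds the genotype difference, so the lower KO levels of these 5 genes are part of the choice and no support. None of the 5 passed edgeR's test between genotypes, with an adjusted p of at least 0.478 in microglia and of 0.999 in astrocytes. Rnf213, a very large ubiquitin ligase, was at 1450 ± 144 CPM in WT and 881 ± 96.9 in KO microglia, and at 227 ± 44.2 and 138 ± 35.6 in astrocytes (SD, n = 3 each). Cd274, which encodes the checkpoint ligand PD-L1, was at 34.9 ± 1.31 and 25.1 ± 2.02 CPM in WT and KO microglia, and at 13.8 ± 2.26 and 5.97 ± 1.98 in astrocytes (SD, n = 3 each).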

How the data were processed

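Full-length cDNA was made from total RNA of sorted cells with a SMART-Seq HT kit and sequenced as Nextera libraries, per the labels' protocols. The authors deposited estimated counts, as RSEM gives them, in 1 table for each cell type, with gene symbols as rows. STAR 2.7.10b, RSEM 1.3.3, limma and the genome build GRCm39 are listed in the submitters' processing notes. No annotation release is named there. The estimated counts are not normalized, hold amplified copies without molecular identifiers, and 3.44% to 5.27% of values above 0 were not whole. They were rounded, and CPM were taken over the library total. Intervals and floors cover counting error only.

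Tests used edgeR 4.0.16 (R 4.3.3; TMM, filterByExpr with a minimum count of 10, quasi-likelihood, Benjamini-Hochberg) on all genes, per cell type for genotype and on all 12 libraries for cell type and for the difference of genotype effects. The SE is the fold change over the square root of F. Scripts were tested on simulated data, where 100 genes with a mean count of at least 100 were changed by 1 on the log2 scale. In the same runs another 100 were changed by 2. The simulated spread followed each gene's mean level only, so recovery in the real data may be lower. Of the genes changed by 1, 49% were recovered in microglia (14191 genes) and 18% in astrocytes (15755 genes). For the difference of genotype effects 3% were recovered (17294 genes). Within groups, libraries differed far beyond sampling noise (chi-square over its degrees of freedom, 29.8 to 117), so none was taken for a repeat. P-values of edgeR between genotypes within a cell type measure the spread between these animals. The fits of all 12 libraries took both libraries of an animal as separate, with the animal as a block only among the alternatives.

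The labels number the animals, which pairs microglia with astrocytes. Deviations of such pairs from group means correlated at -0.02 to 0.21. The members, lists, tests and named genes were chosen with earlier results of these data known. Named are all 8 genes, 5 fixed pathway genes (a further one is not reported here), others of the lists at an unadjusted p under 0.05 for genotype, Kpna4, and the 5 genes most like the group. Tlr4, Socs1, Socs3, Ube2e2, the interferon genes, Uba1, Herc2, Herc3, Ifit1bl1 and Ifit1bl2, all list members, were named after their values were seen. Alternatives were DESeq2 1.42.0, its size factors, library totals, other filters, the summed Ifit3 pair, replicates left out, blocks, 1 fit for all libraries, and WT or KO animals alone. In GENCODE M21 (GRCm38) Herc6 shares 13.7% of its exon bases with Gm45193, Usp18 4.44% with the opposite-strand Gm44148 and Uba7 3.48% with Gm20661, and Ifit1 shares 7.06% of its stretches of 50 bases with Ifit1bl2, so their counts may hold reads of these genes.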

Additional observations from a re-analysis of the deposited data

How the results depend on the processing

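Over the alternatives, 0 of the 8 genes were called between genotypes in microglia, in astrocytes or for the difference between cell types. All 8 estimates were negative in microglia throughout, 7 of 7 with the Ifit3 pair summed. In astrocytes they numbered 7 to 8 with a replicate left out. Between cell types, 5 or 6 genes were called with a replicate left out, 4 in KO animals alone and 6 in WT animals alone. Of the single-gene fold changes, 413 kept their direction and side of the threshold, 6 lost the call, 2 gained it and 19 changed sign.

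The counts over all genes moved more. DESeq2 called 41 genes in microglia, 4 in astrocytes (Col16a1, Gm14434, Gm2026 and H2ac7) and 62 for the difference between cell types. Without a low-count filter the counts were 121, 17 and 160, and with all 12 libraries in 1 fit the microglia count was 41. With a replicate left out they were 0 to 2 in microglia (Gm22614 and Gm24830, without KO replicate 2), 0 to 1 in astrocytes (Npcd, without WT replicate 1) and 0 to 6 for the difference: Slc24a4, Gpc6, Sfrp5, H2ac13, Plcd4 and Ntsr2 without KO replicate 3, and Lrch4 without WT replicate 2. These genes were named after their values were seen. The cause of these changes was not tested.

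The replicate numbers are not stated to link WT and KO animals. Their deviations correlated at 0.10, 0.07 and 0.33 in microglia and at -0.00343, 0.06 and 0.40 in astrocytes, and libraries did not all correlate best with their own number. With the number as a replicate block 30 genes were called in microglia and 0 in astrocytes, none of them among the 8. With the animal as a block, 6 of the 8 were again called between cell types.

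Sign changes were confined to 6 fold changes. For the difference between cell types, Ifit3 was at -0.15 with library totals, -0.0446 without a filter and -0.21 to 0.35 with a replicate left out, Herc6 at 0.0261 with the animal as a block and -0.31 to 0.14, Uba7 at -1.45 to 0.12 and Usp18 at -0.76 to 0.0936. The number of negative values there was 3 to 6. Isg15 in astrocytes against microglia was at -0.27 with library totals, -0.43 in KO animals alone and -0.62 to 0.17 with a replicate left out. Ifit2 in astrocytes ran from -0.16 to 0.13 between genotypes. Library totals in place of TMM moved the median over all genes from 0.19 to -0.09 for astrocytes against microglia, and lower values of the 8 genes under that scaling include this shift. On TMM-scaled library sizes 3 of the 32 group means moved by more than 1 SD, to 40.8 CPM for Ifit2 in KO microglia and to 54.4 for Ifit3 and 9.19 for Ifit3b in WT microglia.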

Other observations

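Relatives of the ISG15 enzymes in the ubiquitin pathway gave a point of comparison. Of 14 such genes, 3 were called as higher in astrocytes and 7 as higher in microglia, beside 36.4% and 28.2% of all genes tested. Uba1, which activates ubiquitin as Uba7 activates ISG15, was at 152 ± 39.7 CPM in WT microglia and 112 ± 19.2 in WT astrocytes (SD, n = 3 each), and its log2 fold change between the cell types was -0.06 (SE 0.16, edgeR adjusted p 0.78). Among the ligases of the Herc family, Herc2 was higher in microglia (-1.38, adjusted p 3.56e-07) and Herc3 in astrocytes (1.09, adjusted p 0.00342). Between genotypes edgeR called 0 of the 14 genes in either cell type. The 1 gene at an unadjusted p under 0.05 was Otub1 in astrocytes, at 0.74 (SE 0.31, unadjusted p 0.0368), a deubiquitinase.

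The remaining IFIT relatives were close to the limit of detection. Ifit1bl1 was at 0 to 2.59 CPM in microglia and at 0 to 1.3 CPM in astrocytes, and Ifit1bl2 at 0 to 1.22 and 0 to 2.67 CPM. Ifit1bl2 was called as higher in astrocytes (log2 fold change 3.07, SE 1.20, edgeR adjusted p 0.0357). It shares stretches of sequence with Ifit1.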
